A study of Mus musculus with 18 samples.

Results

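The MHC class I presentation and immunoproteasome genes described here are 10 genes chosen by name: the heavy chains H2-K1 and H2-D1, the light chain B2m, the peptide transporter genes Tap1 and Tap2, the loading factor Tapbp, the inducible proteasome subunits Psmb8, Psmb9 and Psmb10, and the regulator Nlrc5. All 10 were found in both tables of liver RNA counts, among 38924 gene IDs in the male table and 23337 gene symbols in the female table, and all 10 passed the filter on low counts in each of the 6 fits. The study asked how penicillin early in life, and a gut microbiota shaped by it, change gene expression in the liver. Liver RNA of 18 mice was sequenced, 1 library per mouse and 3 mice per group, at 8 weeks of age, all on a high-fat diet (45% of kcal). The first experiment used C57BL6J mice, weaned at week 4 and moved to the high-fat diet at week 6. Its groups were LDP males (mice 8, 10 and 11, low-dose penicillin from birth), control males (5, 6 and 7, no antibiotic), LDP females (39, 52 and 54) and control females (29, 30 and 32). The second used germ-free Swiss Webster females conventionalized at week 3 and given no antibiotic. They were LDP-microbiota recipients (2, 5 and 8) and control-microbiota recipients (1, 3 and 7). Whole liver was sampled, so hepatocyte RNA was mixed with that of Kupffer cells, lymphocytes and other residents. In such samples fewer cells of a type and less RNA per cell cannot be told apart. Libraries held 70336366 to 74418889 counts in the male table and 17937005 to 28646168 in the female table, so low genes rest on more counts in males.

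Class I molecules show the cell's own protein fragments to CD8 T cells. The immunoproteasome, in which PSMB8, PSMB9 and PSMB10 take the places of PSMB5, PSMB6 and PSMB7, cuts proteins into peptides. The TAP transporter moves these into the endoplasmic reticulum, where tapasin (Tapbp) helps load them onto a heavy chain paired with beta-2-microglobulin (B2m). NLRC5 drives transcription of these genes through an enhanceosome on their promoters, and interferons raise them through IRF1 among other factors. In liver the pathway is active at a low level in hepatocytes and at a higher level in immune and endothelial cells.

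Of the 10 genes, 7 lie on chromosome 17 in or near the H2 complex (GRCm38). H2-K1 is at chr17:33996017-34000347 on the minus strand and H2-D1 at chr17:35262730-35267499 on the plus strand. Psmb9 (chr17:34181987-34187764, minus) and Tap1 (chr17:34187553-34197225, plus) face away from each other and overlap by 212 bases, so their reads there cannot be told apart without strand. Psmb8 (chr17:34197721-34201454) and Tap2 (chr17:34203527-34216321) follow on the plus strand, and Tapbp is at chr17:33915899-33929292. B2m is on chromosome 2 (chr2:122147686-122153083), and Psmb10 (chr8:105935735-105938444) and Nlrc5 (chr8:94434356-94527272) are on chromosome 8. In the reference transcripts, 8.11% of the 50-base stretches of H2-K1 and 14.3% of those of H2-D1 also occur in another gene, against 0% for B2m, the immunoproteasome genes and Nlrc5, so values of the 2 heavy chains carry more uncertainty of read assignment.

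RefSeq promoter windows (GRCm38.p6, 250 bases before to 50 after the start site) were matched for 8 of the 10 genes. Shown are those of H2-K1, which was lower in recipients than in C57BL6J females, of H2-D1, which did not pass that test, and of Tap1, whose window shares 275 bases with that of Psmb9 on the other strand. Windows are at chr17:34000298-34000597 (minus) for H2-K1, chr17:35262844-35263143 (plus) for H2-D1 and chr17:34187306-34187605 (plus) for Tap1. Each runs 5′ to 3′ along its gene, and capitals mark matches to the motifs given after the sequences.
H2-K1: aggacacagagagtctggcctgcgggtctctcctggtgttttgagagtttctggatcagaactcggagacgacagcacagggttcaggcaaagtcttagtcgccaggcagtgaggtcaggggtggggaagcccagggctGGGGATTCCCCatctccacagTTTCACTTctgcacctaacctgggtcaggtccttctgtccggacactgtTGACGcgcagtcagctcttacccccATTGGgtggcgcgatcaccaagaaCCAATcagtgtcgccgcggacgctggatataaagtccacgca
H2-D1: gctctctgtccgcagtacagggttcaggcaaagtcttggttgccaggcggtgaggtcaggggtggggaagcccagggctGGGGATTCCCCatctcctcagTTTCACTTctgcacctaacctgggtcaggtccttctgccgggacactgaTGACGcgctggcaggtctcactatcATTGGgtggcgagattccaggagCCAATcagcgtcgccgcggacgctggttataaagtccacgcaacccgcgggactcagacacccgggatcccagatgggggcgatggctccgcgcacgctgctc
Tap1: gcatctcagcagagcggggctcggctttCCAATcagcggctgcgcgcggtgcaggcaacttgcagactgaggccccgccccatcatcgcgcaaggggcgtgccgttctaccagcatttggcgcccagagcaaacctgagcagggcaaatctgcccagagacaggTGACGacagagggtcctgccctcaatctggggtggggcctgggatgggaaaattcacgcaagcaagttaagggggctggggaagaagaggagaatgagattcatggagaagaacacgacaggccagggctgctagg
The motifs were searched on both strands: AANNGAAA for an IRF element (in 23.9% of 32851 promoter windows), GGGA, NNNN and CC in 1 run for NF-kB (20.7%), TGACG for the X2 site (20.8%), CCAAT for the Y box (37.4%) and TTCNNNGAA for a GAS element (8.30%). The windows of H2-K1, H2-D1 and B2m each held 4 of the 5 motifs, all but the GAS element, and those of Tap1 and Psmb9 held the X2 site and the Y box. In H2-K1 and H2-D1 the run GGGGATTCCCC holds overlapping NF-kB matches, and 206 of 228 aligned bases (90.4%) of the windows are identical. Psmb8 held the GAS element alone, Tapbp the Y box alone and Psmb10 none of the 5. These are letters of the C57BL/6J reference genome, and a match is a description of the window, not evidence of binding.

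Levels are given in CPM, read counts scaled by each library's TMM-adjusted total. A count depends on gene length, so levels were set side by side between genes only per kilobase of the length that the authors give in the male table. On that scale B2m stood highest in LDP males and control males (1517 ± 72.0 and 1499 ± 83.8 CPM per kb, SD, n = 3 each). H2-K1 followed at 357 ± 2.54 and 358 ± 15.04, and H2-D1 at 139 ± 3.44 and 141 ± 6.26. Loading and transport genes were far lower, Tapbp at 22.97 and 22.5 CPM per kb, Tap1 at 4.82 and 5.25 and Tap2 at 3.48 and 3.70. Of the inducible subunits, Psmb10 stood at 21.4 and 20.3 CPM per kb, Psmb8 at 5.39 and 5.62 and Psmb9 at 3.75 and 3.69, below Psmb7 (80.7 and 84.8), Psmb5 (38.7 and 42.6) and Psmb6 (33.6 and 37.0), the constitutive subunits they replace. Over the 6 males the ranges of Tapbp and Psmb10 overlapped, as did those of Psmb8, Tap1 and Nlrc5. Those of Psmb9 and Tap2 overlapped each other and also those of Tap1 and Nlrc5, but not that of Psmb8. Ranges ignore that the genes were counted in the same mice, and differences between these neighbours within a mouse were not tested.

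**Figure D1:**
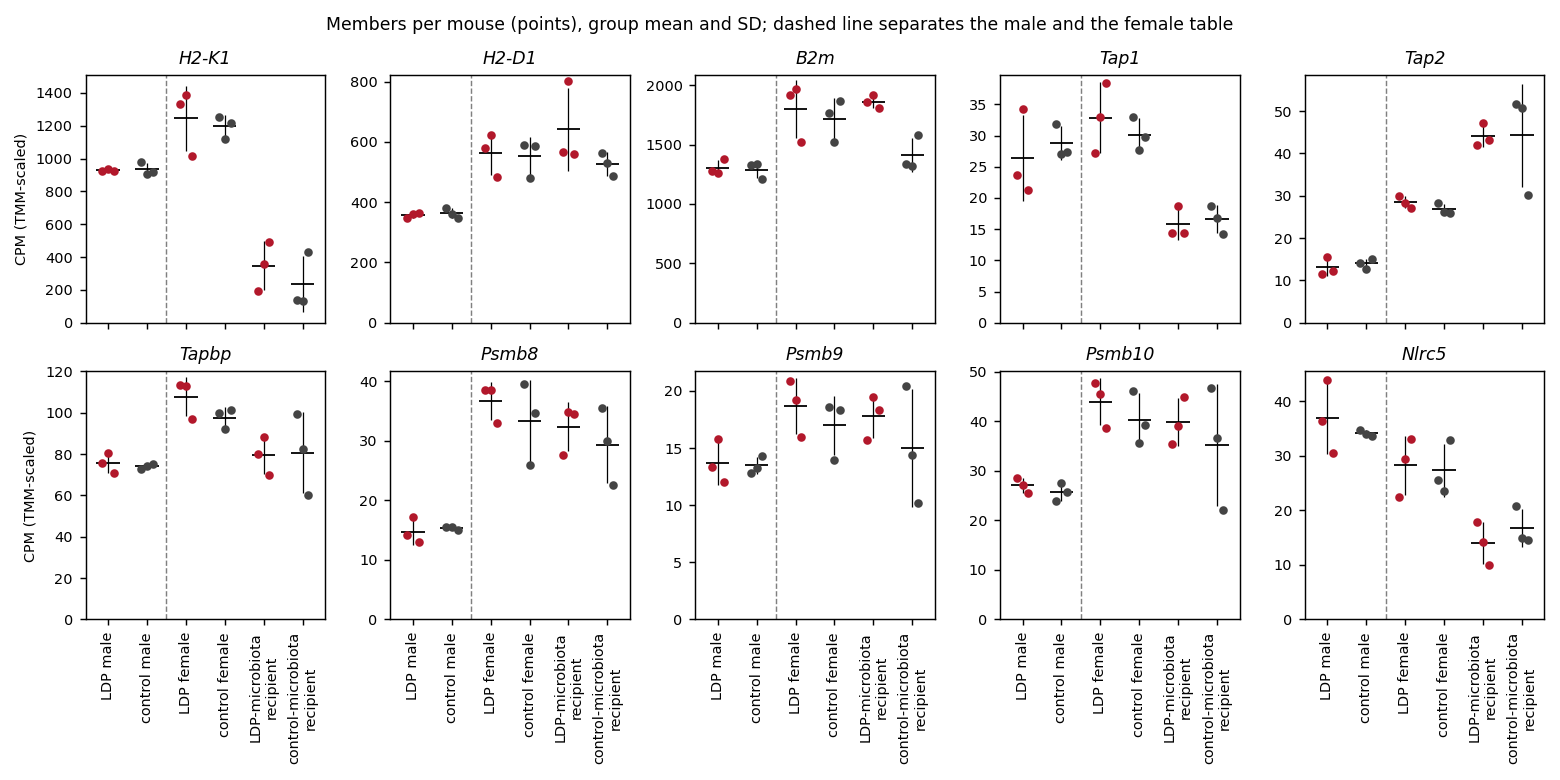
CPM of each of the 10 genes (vertical axes, linear, each panel on its own scale) in every mouse, by group along the horizontal axis, with LDP groups in red, control groups in grey and the group mean and SD as lines. Males and females come from separate tables, divided by the dashed line. H2-K1 and Tap1 are lower and Tap2 is higher in all 6 recipients than in all 6 C57BL6J females, while LDP and control mice of a kind overlap for every gene but B2m in recipients.

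In males no difference between penicillin from birth and no antibiotic was found in these genes beyond the spread between mice. The heavy chains were close to level: H2-K1 had 927, 938 and 927 CPM in LDP males 8, 10 and 11, against 979, 907 and 916 in control males 5, 6 and 7. H2-D1 had 348, 360 and 365 CPM in LDP males, against 381, 360 and 349 in control males, and B2m had 1273, 1264 and 1376 CPM against 1326, 1335 and 1206. The groups overlapped for all 3, and the log2 differences between LDP and control males lay between -0.02 and 0.02, with a 95% interval of -0.17 to 0.16 for H2-K1 and -0.17 to 0.20 for B2m.

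For the transporter, the immunoproteasome and the regulator, LDP males spread more widely than control males in most genes. Tap1 had 23.7, 34.2 and 21.3 CPM in LDP males 8, 10 and 11, against 31.9, 27.0 and 27.4 in control males. Nlrc5 had 36.4, 43.8 and 30.6 CPM in LDP males, against 34.7, 34.0 and 33.5 in control males. Psmb8 had 14.1, 17.2 and 12.96 CPM in LDP males, against 15.6, 15.6 and 14.98 in control males. In each of these 3 genes LDP male 10 was the highest of the 6 mice and LDP male 11 the lowest, and the 3 controls lay between them. Psmb9 (12.01 to 15.8 CPM in LDP males, 12.8 to 14.3 in control males) and Tapbp (70.9 to 80.3 and 73.0 to 75.1 CPM) had the same extremes. Tap2 (11.6 to 15.6 and 12.8 to 14.97 CPM) and Psmb10 (25.6 to 28.6 and 23.99 to 27.6 CPM) also overlapped.

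By edgeR's quasi-likelihood test with Benjamini-Hochberg adjustment over 15438 genes, 0 of the 10 genes passed a threshold of 0.05 in males (adjusted p 0.929 to 0.995), 0 had an unadjusted p under 0.05, and DESeq2 called 0. Of all genes tested, 0.00648% passed and 5.23% had an unadjusted p under 0.05. In 0 of the 10 did the groups not overlap, against 10.5% of all genes. Of the 10, 5 were higher and 5 lower in LDP males (50.7% of all genes were higher), by a median log2 difference of 0.01 against 0.00 for all genes, from -0.12 for Tap1 to 0.11 for Nlrc5. Cage, litter and donor are not given in the labels, so p-values here measure the spread between these mice.

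In females all 10 genes were slightly higher on average with penicillin, and in every one of them the groups overlapped. H2-K1 had 1330, 1386 and 1018 CPM in LDP females 39, 52 and 54, against 1255, 1121 and 1216 in control females 29, 30 and 32. B2m had 1920, 1966 and 1522 CPM in LDP females, against 1764, 1521 and 1867 in control females. LDP females 39 and 52 were above all 3 controls in both genes and LDP female 54 was at or near the bottom. H2-D1 ranged from 483 to 623 CPM in LDP females and from 479 to 590 in control females, and of the LDP females only mouse 52 lay above all 3 controls.

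Among the loading genes, Tapbp, which bridges the transporter and the empty heavy chain, had 114, 113 and 96.8 CPM in LDP females, against 99.8, 92.0 and 101 in control females. Tap1 had 27.2, 33.0 and 38.4 CPM in LDP females 39, 52 and 54, against 32.9, 27.7 and 29.7 in control females, with mouse 54 here the highest and mouse 39 the lowest of the 6. Psmb8 had 38.5, 38.6 and 33.0 CPM in LDP females, against 39.5, 25.9 and 34.7 in control females. The remaining genes were Tap2 (27.1 to 30.02 CPM in LDP females and 25.9 to 28.4 in control females), Psmb9 (16.0 to 20.9 and 13.999 to 18.6), Psmb10 (38.7 to 47.9 and 35.6 to 46.2) and Nlrc5 (22.4 to 33.0 and 23.6 to 32.8).

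The log2 differences between LDP and control females ran from 0.03 for H2-D1 to 0.15 for Tapbp, with a median of 0.11 against 0.00 for all genes, of which 50.9% had a difference above 0. The widest upper bound of a 95% interval was 0.49, for Psmb8. By edgeR 0 of the 10 passed (adjusted p 0.999 in each), 0 had an unadjusted p under 0.05 and DESeq2 called 0. Of 12914 genes tested, 0% passed, 4.51% had an unadjusted p under 0.05 and 9.15% had groups that did not overlap. The median of the 10 was 0.01 without control female 30 and 0.19 without LDP female 54.

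Of the 10 genes, B2m stood apart most between recipients of an LDP microbiota and recipients of a control microbiota, and it did not pass the test over all genes. B2m had 1854, 1921 and 1807 CPM in LDP recipients 2, 5 and 8, against 1339, 1323 and 1578 in control recipients 1, 3 and 7. It was the only one of the 10 genes whose groups did not overlap, a pattern seen in 11.8% of all genes tested. The log2 difference was 0.39 (SE 0.12, 95% interval 0.11 to 0.66). It ran from 0.34 to 0.48 when 1 mouse was left out, where groups that do not overlap fix its sign beforehand. Its unadjusted p was 0.0118 by edgeR's quasi-likelihood test over all genes, with an adjusted p of 0.846, and the adjusted p by DESeq2 was 0.0648, so it did not pass.

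The heavy chains varied widely between single recipients. H2-K1 had 194, 356 and 492 CPM in LDP recipients 2, 5 and 8, against 139, 134 and 430 in control recipients 1, 3 and 7. Control recipient 7 lay above 2 of the 3 LDP recipients, and the log2 difference of 0.55 had an SE of 0.56 and a 95% interval of -0.79 to 1.90. It was 1.34 without control recipient 7 and 0.22 without LDP recipient 8. H2-D1 had 567, 801 and 559 CPM in LDP recipients, against 564, 530 and 486 in control recipients, with LDP recipient 5 above the other 5 mice.

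Control recipient 7, second highest in H2-K1, had the lowest level of the 6 recipients in H2-D1 and in 6 other genes. Psmb10 had 35.5, 39.1 and 45.0 CPM in LDP recipients, against 46.7, 36.7 and 22.2 in control recipients 1, 3 and 7. Psmb9 had 15.7, 19.5 and 18.3 CPM in LDP recipients, against 20.4, 14.4 and 10.2 in control recipients. In both genes control recipient 1 was the highest and control recipient 7 the lowest of the 6. Psmb8 (27.7 to 34.9 CPM in LDP recipients, 22.6 to 35.4 in control recipients), Tapbp (70.0 to 88.5 and 60.3 to 99.4), Tap2 (42.1 to 47.2 and 30.3 to 51.8) and Tap1 (14.3 to 18.7 and 14.2 to 18.7) also had their lowest recipient in control recipient 7 and their highest in control recipient 1. Nlrc5 had 17.8, 14.1 and 10.04 CPM in LDP recipients, against 20.7, 14.96 and 14.5 in control recipients, with LDP recipient 8 lowest.

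By edgeR 0 of the 10 passed in recipients (adjusted p 0.846 to 0.992), 1 had an unadjusted p under 0.05 and DESeq2 called 0, beside 0.00782% and, at an unadjusted p under 0.05, 5.11% of 12780 genes. Of the 10, 6 were higher and 4 lower in LDP recipients (48.4% of all genes were higher), with a median log2 difference of 0.15 against -0.01 for all genes. The differences ran from -0.27 for Nlrc5 to 0.55 for H2-K1. Tests of the difference between effects gave 0 of 10 genes past the threshold for females minus recipients and 0 of 10 for males minus females by edgeR, beside 0% of 13295 and 0% of 12747 genes. At an unadjusted p under 0.05 there were 0 of 10 in either, beside 5.94% and 2.71% of all genes, and DESeq2 called 0. For B2m the effect in females minus that in recipients was -0.33, with a 95% interval of -0.73 to 0.08 (adjusted p 0.788 by edgeR).

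**Figure D2:**
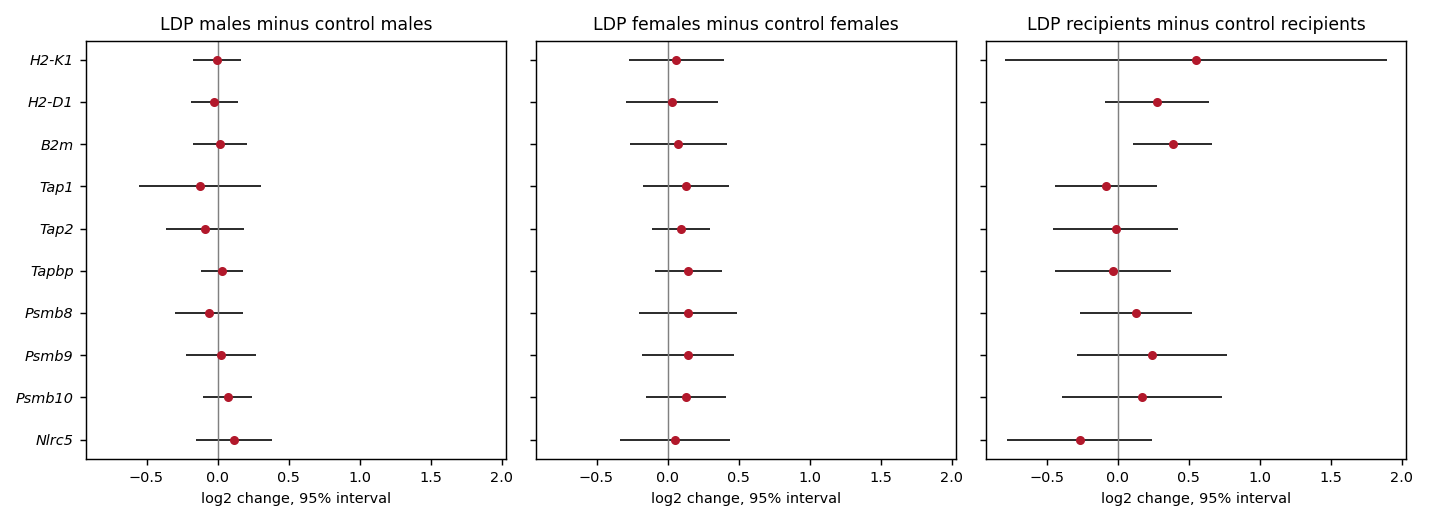
Log2 difference of each of the 10 genes (points) with its 95% interval (lines) from edgeR, for LDP minus control males, females and recipients, with 0 marked by the vertical line. All intervals include 0 except that of B2m in recipients (0.11 to 0.66), and the interval of H2-K1 in recipients (-0.79 to 1.90) is the widest.

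The balance of inducible and constitutive proteasome subunits was followed as the log2 ratio of their counts within each library, which needs no scaling between libraries. In females Psmb8 to Psmb5 averaged 0.24 ± 0.14 in LDP mice and -0.14 ± 0.35 in controls (SD, n = 3 each). Psmb10 to Psmb7 averaged -1.13 ± 0.13 in LDP females and -1.37 ± 0.13 in control females. In males Psmb8 to Psmb5 averaged -1.20 ± 0.33 in LDP mice and -1.27 ± 0.03 in controls. In recipients it averaged 0.82 ± 0.09 in LDP mice and 0.70 ± 0.49 in controls. The mean ratio was higher in the LDP group in all 9 combinations of 3 subunit pairs and 3 kinds of mice, by 0.07 to 0.37, and the groups overlapped in each. The direction turned in 5 of the 9 without 1 mouse: in all 3 recipient ratios without control recipient 7 (-0.14 for Psmb8 to Psmb5, -0.12 for Psmb9 to Psmb6 and -0.18 for Psmb10 to Psmb7), and in males without LDP male 10 for Psmb8 to Psmb5 (-0.100) and Psmb9 to Psmb6 (-0.024). Exact two-sided permutation tests gave p from 0.2 to 0.8 (0.675 to 0.8 after adjustment over the 9), where 3 mice against 3 cannot give less than 0.1. The ratios share the counts of single mice, so the 9 are not independent.

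**Figure D3:**
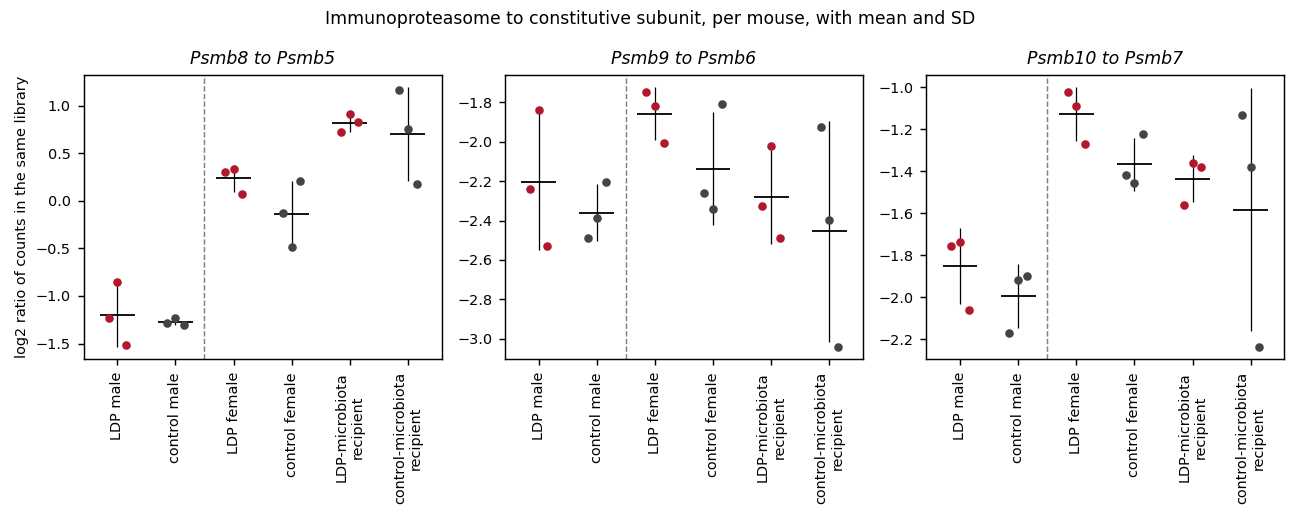
Log2 ratio of the counts of an inducible subunit to those of the constitutive subunit it replaces (vertical axes) in each mouse, by group, LDP in red and control in grey, with mean and SD. LDP and control mice overlap in every panel, and control recipient 7 is the lowest recipient for each pair.

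Genes around the pathway were taken from lists of other class I heavy chains (16 genes), chaperones and trimming enzymes (7), proteasome partners (8) and upstream regulators (21). By edgeR 0 of them passed in males, females or recipients, and DESeq2 called 1, H2-Q1 in males. At an unadjusted p under 0.05 by edgeR were 4 in males, 1 in females and 4 in recipients, beside 5.23%, 4.51% and 5.11% of all genes. The 4 in recipients were all among the 15 other heavy chains tested and all higher in LDP recipients. Of these 15, 10 were higher and 5 lower. They included H2-T10 (log2 difference 0.57, with overlap), H2-Bl (0.48) and Cd1d1 (0.38), the latter 2 without overlap (11.8% of all genes). In males the nonclassical heavy chain H2-Q1 had 6.58, 7.36 and 3.09 CPM in LDP males 8, 10 and 11, against 2.47, 2.09 and 2.37 in control males 5, 6 and 7. The groups did not overlap, and the log2 difference was 1.30 (SE 0.31, unadjusted p 0.00395 and adjusted p 0.92 by edgeR over all genes). DESeq2 did call it (adjusted p 0.00275), as 1 of 42 genes it called in males. Without 1 mouse the log2 difference ran from 1.06 to 1.59. It was 1.59 without LDP male 11 (adjusted p 0.00131 by edgeR), a setting in which edgeR called 53 genes higher and 13 lower. That mouse was the LDP male nearest the controls, so leaving it out had to widen the difference. The value without it is a description and not a test. Of the 50-base stretches of H2-D1, 7.40% also occur in H2-Q1. The share of the stretches of H2-Q1 itself that occur in other genes was not computed, so how uncertain its counts are is not known. Of the 16 other heavy chains 13 were higher in LDP males (median 0.08) and 2 had an unadjusted p under 0.05, H2-Q1 and Mr1, which presents vitamin B metabolites to MAIT cells (0.54, adjusted p 0.92 by edgeR).

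Irf1, the interferon-induced activator of Tap1, Psmb9 and class I genes, was lower in LDP males and LDP recipients and higher in LDP females, and passed in none of the 3. It had 18.9, 21.8 and 24.2 CPM in LDP males, against 29.04, 26.5 and 24.2 in control males, a log2 difference of -0.30. In females it had 45.6, 49.4 and 59.3 CPM in LDP mice, against 42.9, 41.5 and 44.4 in controls, a log2 difference of 0.26 with no overlap. In recipients it had 22.3, 26.8 and 31.6 CPM in LDP mice, against 30.9, 42.1 and 29.4 in controls, a log2 difference of -0.35. The difference of effects was -0.57 for males minus females (unadjusted p 0.00395, adjusted p 1 by edgeR) and 0.60 for females minus recipients (0.0177, adjusted p 0.788). The proteasome partners, 8 genes that hold the constitutive subunits, the PA28 and PA200 activators and Pomp, were lower in 8 of 8 in LDP males (median -0.09), lower in 7 of 8 in LDP females (median -0.12) and higher in 7 of 8 in LDP recipients (median 0.11), with 0 at an unadjusted p under 0.05 in any of the 3.

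Cell type markers were followed by their summed levels, which were not tested, and by edgeR 0 of the markers passed in males, females or recipients (DESeq2 called Cd5l of the Kupffer cell list in males and Cps1 of the hepatocyte list in recipients). Markers of Kupffer cells, the resident macrophages, were lower in LDP males in 10 of 10 genes, 7 at an unadjusted p under 0.05 (5.23% of all genes), with summed levels of 397 to 432 CPM in LDP males and 462 to 569 in control males. Monocyte markers summed to 52.3 to 56.4 CPM in LDP males and 58.9 to 68.5 in control males, and to 95.9 to 106 CPM in LDP females and 69.8 to 92.6 in control females, where 8 of 8 were higher. Mesothelial markers summed to 8.14 to 21.3 CPM in LDP females and 4.84 to 5.96 in control females, and hepatocyte markers to 109431 to 120122 CPM in LDP males and 92102 to 105844 in control males, where 4 of the 8 were higher and 4 lower and the median log2 difference was -0.0024. Dendritic cell markers summed to 7.24 to 8.54 CPM in LDP recipients and 8.18 to 14.9 in control recipients. T and NK cell markers summed to 6.72 to 8.92 CPM in LDP males and 8.11 to 9.11 in control males, to 7.53 to 14.1 in LDP females and 6.95 to 11.4 in control females, and to 5.96 to 10.2 in LDP recipients and 6.74 to 9.20 in control recipients. No marker of these lists was at 0 in a whole group, and their part in the levels of the 10 genes was not tested. The labelled tissue was borne out by the hepatocyte markers, whose summed level was 92102 to 198981 CPM over all 18 libraries.

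The strongest contrast in these genes was between the recipients and the C57BL6J females of the same table. Strain, germ-free rearing with colonisation at week 3, and experiment are a single split in this design and cannot be told apart. Over 12 libraries, 5 of the 10 genes passed by edgeR, 4 lower and 1 higher in recipients, beside 26.7% of 13295 genes tested (14.2% lower and 12.6% higher). The groups did not overlap in 4 of the 10, against 13% of all genes. H2-K1, Tap1, Nlrc5 and Tapbp were lower, Tap2 was higher, and H2-D1, B2m and the 3 immunoproteasome subunits did not pass. The median log2 difference of the 10 was -0.18, against 0.00 for all genes.

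H2-K1 had 134 CPM in the lowest recipient, a median of 275 and 492 in the highest, against 1018, 1236 and 1386 in C57BL6J females, with no overlap. The log2 difference was -2.10 (SE 0.33, adjusted p 0.00101 by edgeR). The other classical heavy chain did not follow: H2-D1 had 486 CPM in the lowest recipient, a median of 562 and 801 in the highest, against 479, 583 and 623 in C57BL6J females, a log2 difference of 0.06 with a 95% interval of -0.18 to 0.30. Within a library the count ratio of H2-D1 to H2-K1 was 1.13 to 4.07 in recipients and 0.427 to 0.483 in C57BL6J females. H2-K1 also varied more among recipients, with the highest 3.66 times the lowest, against 1.36 times among C57BL6J females.

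The 2 subunits of the TAP transporter moved in opposite directions. Tap1 had 14.2 CPM in the lowest recipient, a median of 15.6 and 18.7 in the highest, against 27.2, 31.3 and 38.4 in C57BL6J females, a log2 difference of -0.96 (SE 0.11, adjusted p 3.64e-05 by edgeR). Tap2 had 30.3, 45.2 and 51.8 CPM in recipients (lowest, median and highest), against 25.9, 27.7 and 30.02 in C57BL6J females, a log2 difference of 0.68 (SE 0.11, adjusted p 0.000855 by edgeR). Neither gene overlapped between the strains. The count ratio of Tap2 to Tap1 was 2.13 to 3.02 in recipients and 0.705 to 1.11 in C57BL6J females.

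Nlrc5, the class I transactivator, had 10.04 CPM in the lowest recipient, a median of 14.7 and 20.7 in the highest, against 22.4, 27.5 and 33.0 in C57BL6J females, with no overlap and a log2 difference of -0.86 (SE 0.16, adjusted p 0.00156 by edgeR). Tapbp had 60.3 to 99.4 CPM in recipients and 92.0 to 114 in C57BL6J females, a log2 difference of -0.36 (adjusted p 0.0291 by edgeR) with overlap. It did not pass without control recipient 3 (adjusted p 0.0513), LDP recipient 8 (0.0611), control female 29 (0.0502), control female 32 (0.0609), LDP female 39 (0.0593) or LDP female 52 (0.0666). With the control groups alone, 3 against 3, H2-K1, Tap1 and Nlrc5 passed, while Tap2 (0.72, adjusted p 0.0569) and Tapbp (-0.28, adjusted p 0.386) did not.

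The immunoproteasome genes were near level. Psmb8 had 22.6 to 35.4 CPM in recipients and 25.9 to 39.5 in C57BL6J females, Psmb9 10.2 to 20.4 and 13.999 to 20.9, and Psmb10 22.2 to 46.7 and 35.6 to 47.9. Their log2 differences were -0.18, -0.12 and -0.17, and the 95% intervals reached from -0.50 to 0.20. Psmb5, the subunit PSMB8 replaces, fell to 15.9 to 19.9 CPM in recipients, against 30.1 to 43.2 in C57BL6J females (log2 difference -0.90, adjusted p 1.76e-05 by edgeR). It was the only one of the 8 proteasome partners to pass, where 26.7% of all genes passed.

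**Figure D4:**
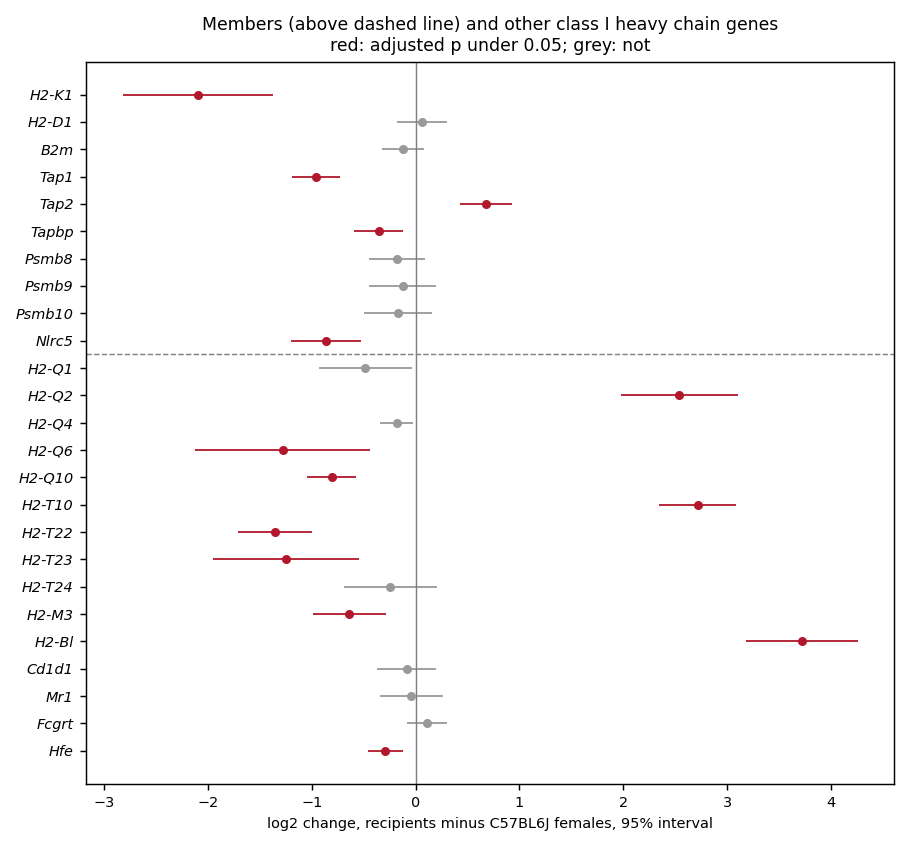
Log2 difference between Swiss Webster recipients and C57BL6J females (points) with 95% intervals (lines) for the 10 genes, above the dashed line, and the other class I heavy chain genes tested, below it, with those at an adjusted p under 0.05 in red. H2-K1 is at -2.10 and H2-D1 at 0.06, and H2-Bl (3.72), H2-T10 (2.72) and H2-Q2 (2.54) stand far to the right. H2-Bl and H2-Q2 rest on few counts in C57BL6J females (1 to 10 and 4 to 17 per library).

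Other class I heavy chain genes were split as well: 9 of 15 tested passed by edgeR, 3 higher and 6 lower in recipients. Of all genes tested 26.7% passed, 12.6% higher and 14.2% lower. H2-T10 had 14.4 to 34.8 CPM in recipients and 2.51 to 3.47 in C57BL6J females. H2-Bl had 3.59 to 6.19 CPM in recipients and 0.0558 to 0.460 in C57BL6J females. H2-Q2 was also higher (2.54 on the log2 scale), with 1.77 to 3.27 CPM in recipients and 0.185 to 0.727 in C57BL6J females. In C57BL6J females H2-Bl rests on 1 to 10 counts per library and H2-Q2 on 4 to 17, so the sizes of these differences are uncertain. H2-T23, the Qa-1 gene, whose product presents leader peptides of other class I chains, was named after its values were seen. It had 138, 31.3 and 167 CPM in LDP recipients 2, 5 and 8 and 141, 144 and 114 in control recipients 1, 3 and 7, against 252 to 316 in C57BL6J females. LDP recipient 5 thus stood at a level of its own, the same mouse that had the most H2-D1.

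Among upstream regulators 4 of 21 fell and 2 rose in recipients, a share close to the 26.7% of all genes that passed. Irf1 (log2 difference -0.63, adjusted p 0.0011 by edgeR) and Irf9 (-0.43, adjusted p 0.00477), a factor of the type I interferon response, were among those that fell. With the control groups alone, Irf1 (-0.33) and Irf9 (-0.22) did not pass.

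Immune cell markers were also lower in recipients, in 8 of 8 monocyte, 9 of 9 Kupffer cell, 5 of 5 B cell, 6 of 7 dendritic cell and 9 of 11 T and NK cell markers tested, of which 4, 5, 3, 3 and 2 passed by edgeR, beside 26.7% of all genes. The share of T and NK cell markers that passed was below that of all genes. Monocyte markers summed to 51.2 to 74.2 CPM in recipients and 69.8 to 106 in C57BL6J females, and Kupffer cell markers to 522 to 746 and 623 to 882. B cell markers summed to 3.23 to 4.87 CPM in recipients and 4.86 to 8.10 in C57BL6J females, dendritic cell markers to 7.24 to 14.9 and 12.7 to 18.4, and T and NK cell markers to 5.96 to 10.2 and 6.95 to 14.1. Markers of other cells were lower too, in 5 of 5 mesothelial, 5 of 5 bile duct and 6 of 7 stellate cell markers tested. Of these 2, 0 and 2 passed by edgeR, and the median log2 difference of the mesothelial list was -1.46. Sinusoidal endothelial markers were split, with 4 higher and 4 lower in recipients. Of these 8, 1 passed as higher and 2 as lower by edgeR, beside 26.7% of all genes, with log2 differences from -2.34 to 0.40. Of 8 hepatocyte markers 0 passed by edgeR, with 0 at an unadjusted p under 0.05 and 0 called by DESeq2. The part of these cells in the differences was not tested.

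Swiss Webster is an outbred stock, and its mice need not carry the H2 haplotype of C57BL/6J, whose genome is the reference used for counting. A gene whose expression depends on haplotype is H2-Ea-ps, the class II alpha chain gene silenced in C57BL/6J by a promoter deletion, at chr17:34341959-34344645. It was named after its values were seen. It had 21, 8 and 230 counts in LDP recipients 2, 5 and 8 and 0, 0 and 265 in control recipients 1, 3 and 7, against 0 in each C57BL6J library but control female 29, with 1 count. The recipients with the most H2-Ea-ps, LDP recipient 8 and control recipient 7, were also those with the most H2-K1 (492 and 430 CPM). Without these 2 mice H2-K1 was at 194 and 356 CPM in LDP recipients 2 and 5, against 139 and 134 in control recipients 1 and 3. The log2 difference was then 1.01 (adjusted p 0.527 by edgeR). As the 2 mice left out were the highest in H2-K1 itself, this is a description and not a test. How far allele differences from the reference shifted the counts was not tested.

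**Figure D5:**
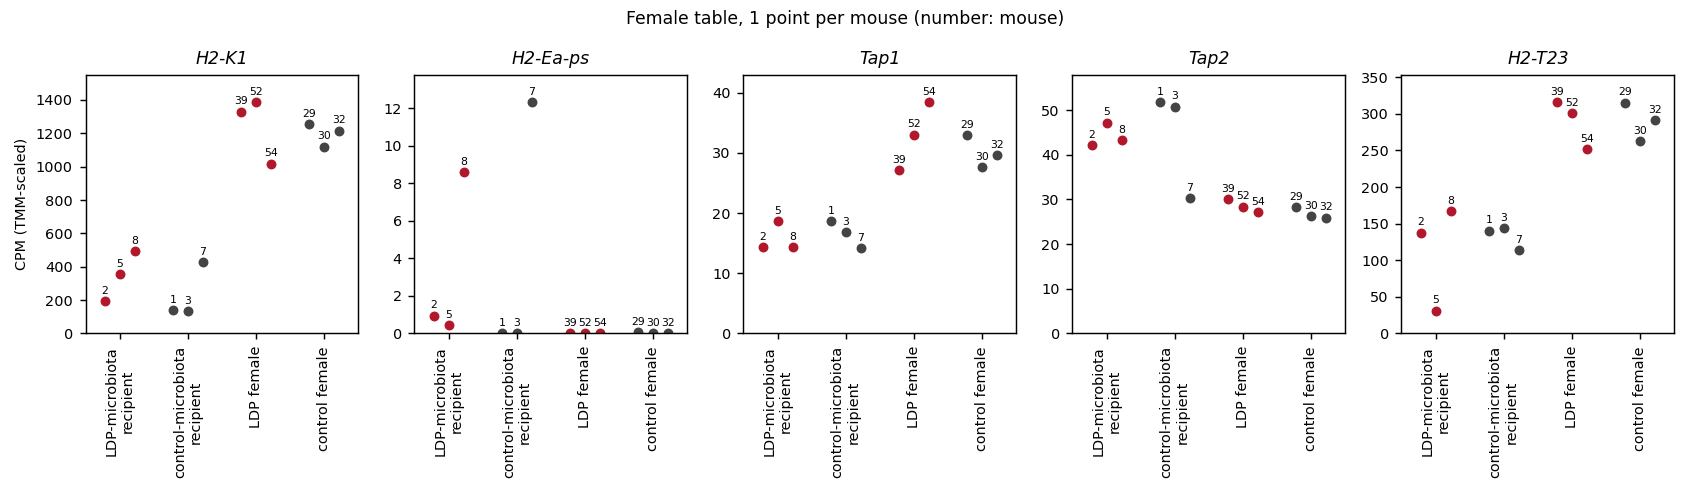
Levels in CPM (vertical axes, linear) of H2-K1, H2-Ea-ps, Tap1, Tap2 and H2-T23 in each recipient and each C57BL6J female, by group. The recipients with the most H2-Ea-ps, control recipient 7 and LDP recipient 8, also have the most H2-K1, and LDP recipient 5 has the least H2-T23 (31.3 CPM). Red points are LDP mice and grey points controls, numbered by mouse.

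Genes whose levels followed the mean of the 10 from mouse to mouse were ranked by Pearson r of log2(CPM + 0.5), centred on each group's mean. Over the 6 males the closest were Ccnq (r = 0.998), Plpp2, Sparc, Cd63 and Tmem62, and over the 12 females of the other table Pepd (r = 0.970), Shisa5 (0.903), Wdr25, Cep78 and Ddah1. These are descriptions over mice that share library depth and tissue makeup, picked as the top of 12046 and 11942 genes. Each of the 10 is itself part of the mean, so part of its own r is built in. In males Psmb8 (0.986), Tap1 (0.976) and Nlrc5 (0.970) followed the mean most closely. H2-K1 (0.30), Psmb10 (0.11), H2-D1 (0.10) and B2m (-0.43) followed it least. In females Psmb8 (0.938) and Psmb9 (0.917) followed it most closely, and B2m (0.30), Nlrc5 (0.21) and H2-K1 (-0.12) least.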

How the data were processed

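Liver RNA of 18 mice was sequenced from TruSeq v2 libraries, per the labels' protocols, and whether the libraries keep strand is not given in the sources used here. The authors deposited raw read counts per gene in 2 tables, 1 for the 6 males (38924 Ensembl gene IDs with a length) and 1 for the 12 females (23337 gene symbols). DESeq, featureCounts 1.4.3-p1, HTSeq 0.5.3p9, STAR 2.3.0e and the mm10 build are listed per the submitters' processing notes, and which of them made which table is not given in the sources used here. Levels and comparisons were kept within a table, except for the difference between male and female effects, which was fitted over the 20058 names in both.

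Each comparison was fitted with edgeR 4.0.16 (R 4.3.3, limma 3.58.1): TMM scaling, filterByExpr with a minimum count of 10 and a minimum total of 15, a robust quasi-likelihood F test, and Benjamini-Hochberg adjustment over all genes at 0.05. The script was tested on simulated data. A standard error is the log2 difference divided by the square root of F, and 95% intervals use the fit's degrees of freedom. CPM values are counts scaled by the TMM-adjusted total. DESeq2 1.42.0, other scalings and filters, and leaving out each mouse were alternatives. The ratio tests used scipy 1.17.1. Intervals and tests cover the spread between 3 mice a group.

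The 10 genes and the other lists were chosen with earlier results of these data known. The text names all 10 in males, females and recipients and between strains. For the differences of effects it gives counts over the 10 and only some of them by name. It also names up to 3 genes of smallest p from each other pathway list, and the 5 genes most like the mean of the 10. Exceptions are named as such. 1 gene of the upstream regulator list is not reported here.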

Additional observations from a re-analysis of the deposited data

How the results depend on the processing

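Over the comparisons other than that of the strains, 340 alternative values of the 10 genes and 420 values without 1 mouse held 0 calls (smallest adjusted p 0.0648, B2m in recipients by DESeq2), and 9 and 49 of them changed sign. H2-K1 in males was 0.000320 with a filter at 1 CPM and 0.000354 with both tables in one fit, and Tap2 in recipients was 0.00305 with upper quartile factors. Psmb8 in females minus recipients was 0.00278 by DESeq2, 0.00290 with RLE factors, 0.00850 with no filter and 0.00226 with a filter at 1 CPM. The cause was not tested. Both further alternatives were chosen after seeing the data, and 1 of them left out the 2 recipients highest in H2-K1. Without LDP recipient 8 and control recipient 7, 2 of the 10 genes were higher at an unadjusted p under 0.05, against 1 with all mice, and Psmb8 was -0.064 and Psmb10 -0.16. With the control groups alone, 3 genes passed between strains, against 5, and H2-D1 was -0.069. Leaving out 1 mouse gave 0 to 1 of the 10 genes higher (1 without LDP male 11) and 0 to 2 lower (2 without LDP male 10) at an unadjusted p under 0.05 in males, 1 to 2 higher in recipients, 0 to 1 higher and 0 to 1 lower for females minus recipients, and 0 to 2 lower for males minus females. In males the log2 differences then ran from -0.028 to 0.030 for H2-K1, -0.052 to 0.013 for H2-D1, -0.031 to 0.041 for B2m, -0.36 to 0.0091 for Tap1, -0.016 to 0.077 for Tapbp, -0.19 to 0.026 for Psmb8, -0.094 to 0.11 for Psmb9 and -0.030 to 0.23 for Nlrc5. In females they ran from -0.026 to 0.19 for H2-K1, -0.069 to 0.13 for H2-D1, -0.012 to 0.18 for B2m, -0.018 to 0.28 for Psmb8 and -0.075 to 0.21 for Nlrc5. In recipients they ran from -0.22 to 0.000493 for Tap1, -0.22 to 0.10 for Tap2, -0.19 to 0.13 for Tapbp, -0.017 to 0.28 for Psmb8 and -0.064 to 0.42 for Psmb10, and between strains from -0.032 to 0.11 for H2-D1. For females minus recipients they ran from -0.036 to 0.30 for Tap2, -0.013 to 0.34 for Tapbp, -0.16 to 0.15 for Psmb8, -0.40 to 0.10 for Psmb9 and -0.31 to 0.19 for Psmb10. For males minus females they ran from -0.19 to 0.016 for H2-K1, -0.15 to 0.034 for H2-D1, -0.17 to 0.016 for B2m, -0.17 to 0.016 for Psmb10 and -0.10 to 0.19 for Nlrc5. The log2 ratio differences ran from -0.100 to 0.23 (males) and -0.14 to 0.35 (recipients) for Psmb8 to Psmb5, -0.024 to 0.32 (males) and -0.12 to 0.44 (recipients) for Psmb9 to Psmb6, and -0.18 to 0.37 (recipients) for Psmb10 to Psmb7. Over all genes DESeq2 called 42 in males, 15 in females and 28 in recipients, against 1, 0 and 1 by edgeR, and 12 for females minus recipients, against 0. Without 1 mouse edgeR called 0 to 66 in males, and the control groups alone gave 1086 calls between strains, against 3556. No paired analysis was possible because replicate numbers are mouse numbers and the groups compared share fewer than 2 of them.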

Other observations

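H2-K2, a class I gene next to H2-K1, lies outside the rule for named genes and was chosen after its values were seen. It had 10.8 to 12.8 CPM in LDP females and 8.64 to 8.99 in control females, with no overlap, as in 9.15% of all genes. The log2 difference between LDP and control females was 0.42 (unadjusted p 0.00541, adjusted p 0.999 by edgeR's quasi-likelihood test over all genes). H2-K2 was also higher in LDP recipients (0.46) and LDP males (0.35), with overlap in both. Between recipients and C57BL6J females H2-K2 was lower in recipients by 0.44 on the log2 scale (adjusted p 0.0172 by edgeR).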
